A study of Mus musculus with 3 samples.

Results

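The 10 genes Trem2, Tyrobp, Mertk, Axl, Mfge8, Apoe, Lpl, Spp1, Mmp12 and Cst3, whose products serve the engulfment of debris and the handling of lipid, were followed in the glia of the mouse medial vestibular nucleus (MVN), a brainstem nucleus that receives the input of the inner ear. They are 10 of the 28676 genes of the count table, and all 10 were found there by symbol. The genes were chosen by their measured levels in an earlier description of the same libraries, so their levels and ratios are given here as a description and with no test. Mice of strain C57BL/6 were operated on the right ear at postnatal day 20, and the MVN was taken 1 day later. In the control group (10 mice) the bulla of the middle ear was opened and the labyrinth was left in place, and in the other group (11 mice) the labyrinth was destroyed, which is called unilateral labyrinthectomy (UL). ULI is the MVN on the operated side and ULC the MVN on the other side of the UL mice, so ULI and ULC are 2 sides of the same animals. Each of the 3 groups was pooled into 1 single-cell library. All 3 samples carry labyrinthectomy in the treatment field of their labels. Which one is the control follows from its source name and the methods of the study, and all ratios to control depend on this.

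When cells die or shed membrane, glia recognise lipids exposed on the surface of the debris, take it up and pass its lipid to lysosomes and out to carrier proteins. TREM2 binds lipids and lipoproteins and signals through the adaptor TYROBP (DAP12), while the receptor kinases MERTK and AXL bind exposed phosphatidylserine through bridging proteins, a task that MFGE8 carries out for integrins. APOE carries lipid between glia and neurons, and LPL releases fatty acids from lipoproteins. Spp1 encodes osteopontin, Mmp12 a macrophage metalloelastase and Cst3 cystatin C, a secreted inhibitor of cathepsins that microglia and astrocytes make in large amounts.

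The promoters of Spp1 and Mmp12 are shown because these genes were higher together in ULI microglia, and that of Apoe because it was lower there. They span 250 bases before to 50 bases after the gene start in RefSeq (GRCm38.p6). The table held a promoter for 8 of the 10 genes, with no entry for Tyrobp or Lpl. Capitals mark GAGGAAGT, a form of the ETS motif bound by the myeloid factor PU.1, on either strand.
Spp1, chr5:104434861-104435160, + strand: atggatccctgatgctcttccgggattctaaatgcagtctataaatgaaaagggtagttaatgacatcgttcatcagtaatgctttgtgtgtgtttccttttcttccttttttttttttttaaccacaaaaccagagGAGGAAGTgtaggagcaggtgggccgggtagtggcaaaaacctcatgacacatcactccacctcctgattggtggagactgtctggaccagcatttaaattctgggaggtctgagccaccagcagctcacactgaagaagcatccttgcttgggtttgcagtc
Mmp12, chr9:7344147-7344446, + strand: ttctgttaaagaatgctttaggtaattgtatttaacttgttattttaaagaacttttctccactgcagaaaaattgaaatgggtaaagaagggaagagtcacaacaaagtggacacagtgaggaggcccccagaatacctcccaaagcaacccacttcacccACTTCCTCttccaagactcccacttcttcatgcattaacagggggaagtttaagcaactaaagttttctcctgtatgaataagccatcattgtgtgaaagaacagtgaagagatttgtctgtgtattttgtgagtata
Apoe, chr7:19699139-19699438, - strand: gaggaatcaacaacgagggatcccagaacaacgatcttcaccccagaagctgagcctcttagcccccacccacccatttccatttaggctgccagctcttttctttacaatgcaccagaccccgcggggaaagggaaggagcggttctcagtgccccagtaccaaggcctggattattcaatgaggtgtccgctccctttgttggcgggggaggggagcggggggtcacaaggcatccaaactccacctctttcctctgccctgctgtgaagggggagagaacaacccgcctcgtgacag
The motif stood once in the Spp1 window, once on the reverse strand in the Mmp12 window and in none of the other 6, and 3.11% of 32544 promoters of the same length hold it. The AP-1 motif TGANTCA stood once, in the Trem2 window (7.79% of promoters), and TATAAA once, in the Spp1 window (13.6%). The searched motifs do not overlap each other in these windows. The Mmp12 and Spp1 windows had a GC content of 38.7% and 45.3%, against 56.0% to 66.0% in the other 6. These are matches of letters only.

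By GENCODE M21 (mm10), Trem2 lies at chr17:48346401-48354147, Tyrobp at chr7:30413760-30417585, Mertk at chr2:128698956-128802894, Axl at chr7:25757273-25788705 and Mfge8 at chr7:79133768-79149060. Apoe lies at chr7:19696109-19699188, Lpl at chr8:68880491-68907448, Spp1 at chr5:104435118-104441050, Mmp12 at chr9:7344381-7369499 and Cst3 at chr2:148871722-148875692. A count is of a whole gene, with exons, introns and UTRs not told apart. Mertk shares its locus with the antisense gene Gm14011, which is also in the table, and Spp1 and Mmp12 overlap Gm42793 and Mmp1b, which are not in it. Whether the counting used strand is not given in the sources used here.

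The table held unique molecular identifiers (UMIs) for 14876 barcodes: 27019650 UMIs for control, 17428194 for ULI and 12768983 for ULC. After 912 barcodes with under 200 genes were left out, the median cell had 3177, 2100 and 931 UMIs. Clusters were named from marker genes alone, so that each name stands for cells like that class. Microglia were 1725 control, 908 ULI and 482 ULC cells, perivascular macrophages 296, 247 and 174, astrocytes 304, 335 and 210, and the oligodendrocyte lineage 1683, 2130 and 1868. All markers of the own class were detected in microglia, perivascular macrophages and astrocytes. The libraries stand apart: 9 of 26 clusters drew over 80% of their cells from 1 library. Barcodes shared between libraries could not be counted, since the columns carry running numbers, and no 2 kept cells held the same counts for every gene. Choroid plexus markers, summed over 7 genes, were at 51.8, 203 and 1062 CPM in control, ULI and ULC microglia and at 62.1, 397 and 5353 CPM in astrocytes. Their part in the values below was not tested.

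Levels are given in CPM, the UMIs of a gene scaled to the total of its class in a library, with the exact Poisson 95% interval in parentheses, and ratios as log2 ratios of CPM with the exact binomial 95% interval. Both intervals cover counting error only. With 1 library per group, no difference rests on replicates, no p-value is given and cells were not used as replicates. Both comparisons with control use the same control library. In summed cells of a class, less RNA per cell and fewer cells that use a gene cannot be told apart.

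**Figure D1:**
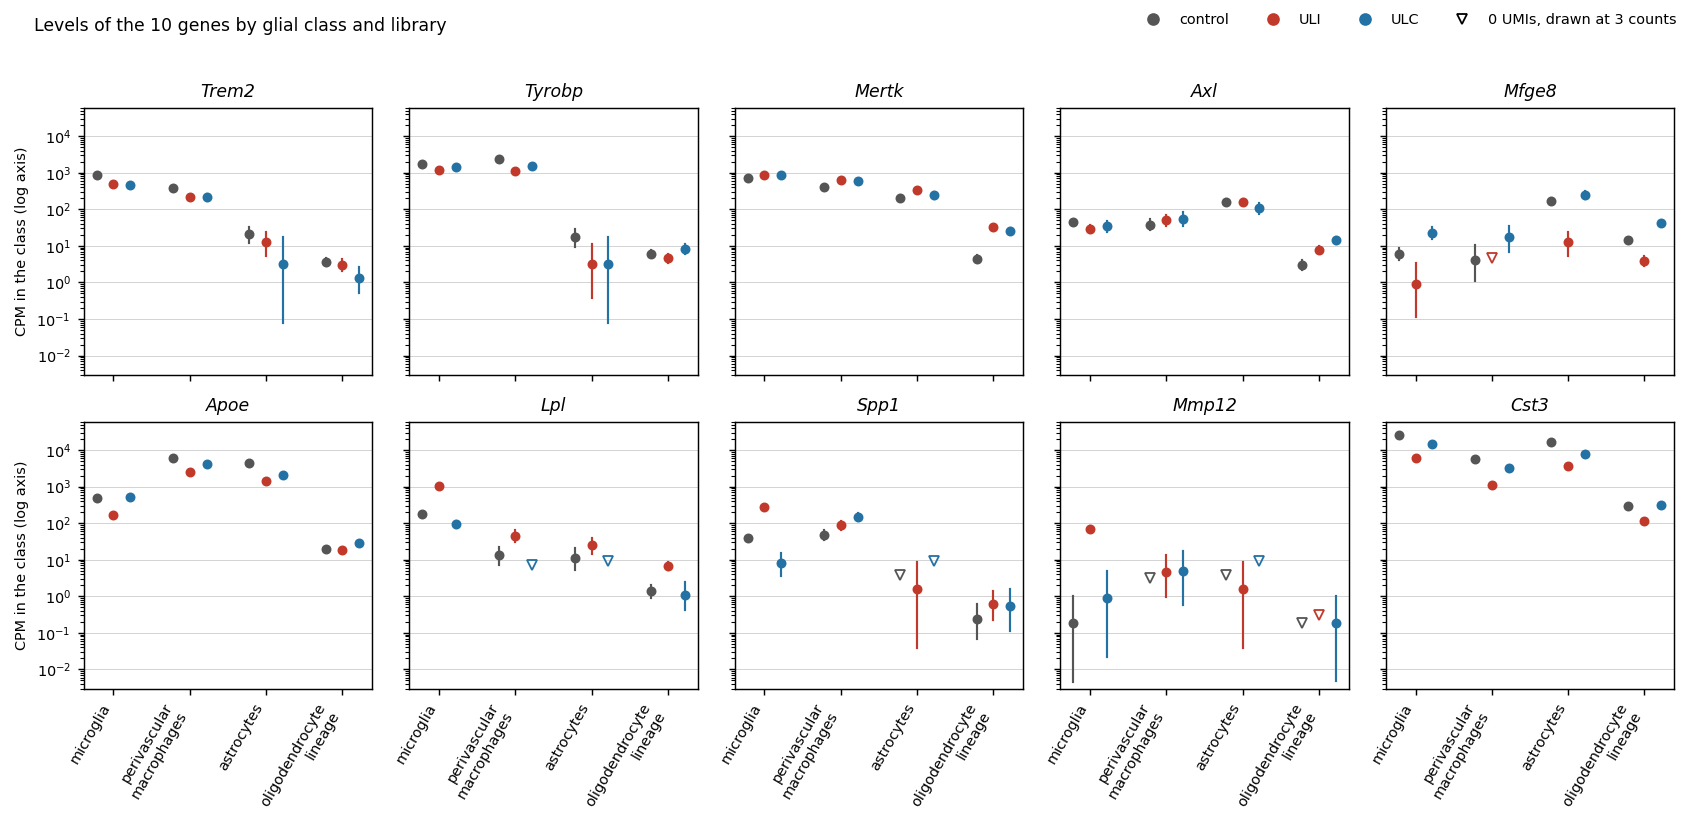
Level of each gene in CPM (log axis) in the 4 glial classes; dots are the 3 libraries, bars are exact Poisson 95% intervals, and open triangles mark a library with 0 UMIs, drawn at the level of 3 counts. Trem2 and Tyrobp sit at least 10 times higher in microglia and perivascular macrophages than in astrocytes or the oligodendrocyte lineage, and Lpl in microglia is highest in ULI at 1054 CPM.

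The lipid-sensing receptor Trem2 was highest in microglia, at 855 CPM (831 to 880) in control against 499 (470 to 530) on the operated side (ULI) and 464 (425 to 505) on the other (ULC). Control stood above both UL libraries, and the intervals of ULI and ULC overlapped. In perivascular macrophages Trem2 was next, at 374, 214 and 215 CPM, again with control highest. The log2 ratio of ULI to control was -0.78 (-0.87 to -0.68) in microglia and -0.81 (-1.10 to -0.52) in perivascular macrophages, and that of ULC to control -0.88 (-1.02 to -0.75) and -0.80 (-1.15 to -0.46). In none of these was the difference as large as 2-fold. Astrocytes held 17, 8 and 1 UMIs of Trem2 and the oligodendrocyte lineage 60, 29 and 7, so these classes were close to the limit of detection. With each cell thinned to 500 UMIs, 31.3% of control, 17.6% of ULI and 18.2% of ULC microglia had a Trem2 UMI, against 0 of 1401 control mature oligodendrocytes, which allows a share of up to 0.214%. Before thinning, the shares were 73.5%, 47.9% and 43.2% in microglia with medians of 3074, 2236.5 and 2360 UMIs, and 2.57% in control mature oligodendrocytes with a median of 4244 UMIs.

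Tyrobp, the adaptor through which TREM2 and other myeloid receptors signal, had a level of 1716 CPM (1682 to 1752) in control microglia, against 1186 (1141 to 1233) for ULI and 1444 (1375 to 1516) for ULC. The 3 libraries did not overlap, and ULI was the lowest. In perivascular macrophages the values were 2377, 1113 and 1502 CPM, again with ULI lowest and control highest. The difference of ULI to control there passed 2-fold, at -1.09 (-1.22 to -0.97), but its interval reaches under 2-fold. By mean level over the libraries, neutrophils were above both classes for Tyrobp, on 194 UMIs in all, and the ranges of these 3 myeloid classes overlapped.

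Mertk, a receptor kinase for phosphatidylserine-coated debris, was higher than control in 6 of the 6 classes measured in ULI and in 5 of 6 in ULC. The step was small in the myeloid classes and large in oligodendrocyte precursor cells. In microglia its level was 730 CPM (707 to 753) in control, against 868 (829 to 908) for ULI and 868 (815 to 924) for ULC, so both UL libraries stood above control by the same step. The log2 ratio was 0.25 for either side, and the ratio of ULI to ULC was -0.00 (-0.11 to 0.11). In perivascular macrophages it was at 410, 623 and 614 CPM and in astrocytes at 209, 341 and 243 CPM. The astrocyte ratio was 0.71 (0.41 to 1.01) in ULI and 0.22 (-0.19 to 0.62) in ULC, so only the ULI interval left out equality. By mean level the order of classes was microglia, perivascular macrophages and astrocytes, and the ranges of these neighbours over the libraries did not overlap. In precursor cells Mertk had 41.9 CPM in control, against 177 for ULI and 137 for ULC. These differences passed 2-fold, with log2 ratios of 2.08 (1.59 to 2.60) in ULI and 1.71 (1.17 to 2.27) in ULC. In mature oligodendrocytes Mertk was under 5 CPM in every library. In precursor cluster 6 Mertk was at 42.5 CPM in control, 177 for ULI and 64.4 for ULC, the last on 6 UMIs with an interval that overlaps control. In cluster 25, almost wholly of ULC cells, it was at 147 CPM. Over the whole lineage the ratio was 2.92 in ULI and 2.50 in ULC, in libraries that held 243, 464 and 246 precursor cells and 39, 741 and 736 newly formed ones among 1683, 2130 and 1868 cells of the lineage. The part of this make-up in the ratio was not tested.

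Axl, the related kinase, was low in microglia, at 44.0 CPM in control, with 28.8 (22.1 to 36.8) on the operated side and 34.7 (24.6 to 47.4) on the other. It was higher in astrocytes, at 158, 160 and 109 CPM, where the intervals of all 3 libraries overlapped. In precursor cells ULC stood apart, at 84.1 CPM against 40.9 in control and 43.0 in ULI, a log2 ratio of 1.04 (0.45 to 1.65) to control. This difference was measured in cluster 25, which held 172 of the 246 ULC precursor cells, 3 control cells and 0 ULI cells, and where ULC was at 91.2 CPM. In cluster 6, which all libraries shared, Axl was at 41.5, 43.0 and 32.2 CPM with overlapping intervals. Outside the glia, Axl was highest in leptomeningeal fibroblasts among the named classes, at 247 to 336 CPM. It was higher still in an unnamed cluster led by Rgs5, Acta2 and Myh11, genes of mural cells, at 935, 605 and 567 CPM in control, ULI and ULC. Mertk was at 133, 280 and 273 CPM in this cluster, past 2-fold above control on both sides.

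Mfge8, the secreted bridge between phosphatidylserine and integrins, was lower than control on the operated side and higher on the other. In astrocytes its level was 170 CPM (143 to 201) in control, against 12.4 (5.37 to 24.5) for ULI and 249 (198 to 310) for ULC, and no intervals of ULI and another library overlapped. The log2 ratio was -3.77 (-5.01 to -2.75) for ULI to control, 0.55 (0.14 to 0.96) for ULC to control and -4.32 (-5.58 to -3.28) for ULI to ULC. The difference was not particular to astrocytes. In mature oligodendrocytes Mfge8 was at 13.8, 1.76 and 25.3 CPM, in precursor cells at 16.8, 2.82 and 41.4, and in the Rgs5 cluster at 310, 201 and 1536. The libraries filled different clusters of mature oligodendrocytes, and the order did not hold in each of them. In cluster 1, with 62 control and 749 ULC cells, Mfge8 was at 119 CPM in control and 24.9 in ULC, so ULC was the lower one. In cluster 0, with 707 control and 482 ULI cells, it was at 5.04 and 4.71 CPM with overlapping intervals, and in cluster 2, with 618 and 163 such cells, at 10.5 and 1.45 CPM. Over the classes measured, Mfge8 was lower in ULI than in control in 5 of 5 and higher in ULC in 7 of 7. Microglia held few UMIs of it, namely 33, 2 and 26 in the 3 libraries. With each cell thinned to 500 UMIs, 5.61% of control astrocytes and 9.55% of ULC astrocytes had an Mfge8 UMI, against 0 of 330 ULI astrocytes, which allows a share of up to 0.909%. Before thinning these shares were 21.4%, 17.1% and 1.79%, at median depths of 2171, 1238 and 1475 UMIs.

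The lipid carrier Apoe was lower in ULI in the myeloid cells and in astrocytes, while the ULC interval in microglia included equality with control. It was highest in perivascular macrophages, with 6251 CPM (6094 to 6410) in control, 2465 (2346 to 2589) for ULI and 4308 (4109 to 4514) for ULC, although its range over the libraries overlapped that of astrocytes. Astrocytes followed with 4338, 1394 and 2106 CPM, and microglia had 499 (480 to 518), 173 (156 to 192) and 527 (485 to 571). In each of these classes ULI was the lowest library. The median mitochondrial share of astrocytes was 17.5%, 23.9% and 25.3% in control, ULI and ULC. With cells of at most 20% only, 377 astrocytes remained in place of 849, and the ratio of ULC to control for Apoe went from -1.04 to -1.43. Over 14 alternative settings this astrocyte ratio ran from -1.43 to -0.85, and it was under 2-fold in 7 of them. The log2 ratio of ULI to control was -1.34 (-1.42 to -1.26), -1.64 (-1.75 to -1.53) and -1.53 (-1.69 to -1.37) in the 3 classes, and that of ULC to control in microglia 0.08 (-0.05 to 0.21). The ULC level in microglia rests on few cells. Of its UMIs, 3 cells held 24.1% and 10 cells 45.0%, against 5.10% and 12.4% in control. An Apoe UMI was found in 23.4% of ULC and 36.9% of control microglia, without thinning. In the oligodendrocyte lineage Apoe was at 20.2, 18.7 and 28.7 CPM, and within the lineage its level was highest in precursor cells, at 111, 75.5 and 97.0 CPM. Apoe was lower in ULI than in control in 8 of the 8 classes measured. When the median ratio over the other classes was taken off, the microglial ratio was -0.18 and no longer past 2-fold, that of astrocytes -0.30 and that of perivascular macrophages turned to 0.18. Of 14 alternative settings, 2 brought the microglial ratio of ULI to control under 2-fold.

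Cst3, which encodes the cathepsin inhibitor cystatin C, had the most UMIs of the 10 genes in microglia, with 143698 in control. There its level was 26483 CPM in control, 6065 for ULI and 14738 for ULC, and the 3 libraries stood far apart. Astrocytes had 16741, 3661 and 7999 CPM and perivascular macrophages 5883, 1145 and 3179 CPM, in the same order. The log2 ratio of ULI to control was -2.13 (-2.15 to -2.10), -2.19 (-2.26 to -2.13) and -2.36 (-2.47 to -2.25), and that of ULC to control -0.85, -1.07 and -0.89. Cst3 was lower in ULI in 8 of 9 classes. The other class was neurons, at 374 CPM in ULI and 180 in control, the latter on 12 UMIs in 8 cells. After the median over the other classes was taken off, the microglial ratio was -0.51 and that of astrocytes -0.58, neither past 2-fold. Cells of other classes also gave Cst3 UMIs. With each cell thinned to 500 UMIs, 9.78% of control mature oligodendrocytes had one, against 98.4% of control, 82.5% of ULI and 89.9% of ULC microglia. Unthinned, the shares were 53.0% of the oligodendrocytes and 98.9%, 92.6% and 90.9% of the microglia, at the median depths given above.

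**Figure D2:**
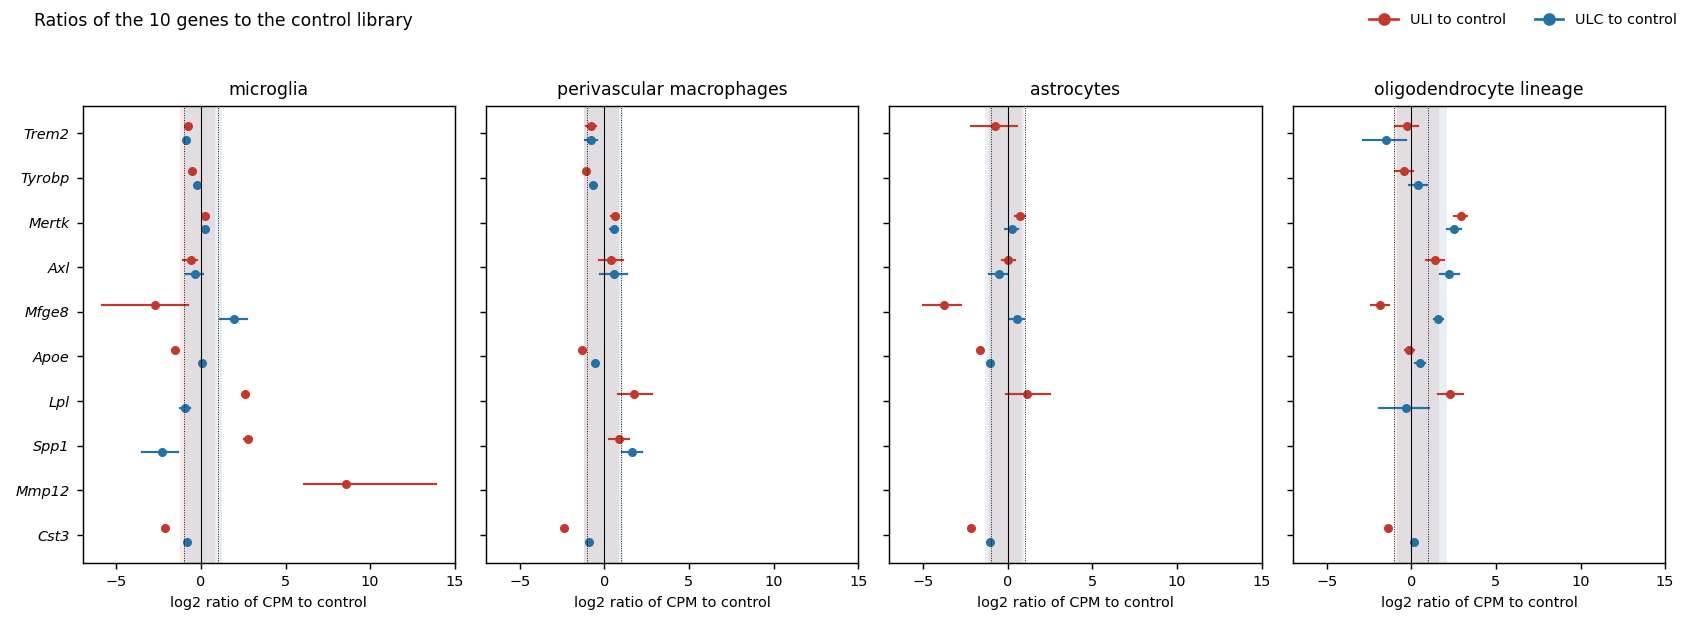
Log2 ratio of CPM of ULI (red) and ULC (blue) to control for each gene measured with 20 or more UMIs, one panel per class; bars are exact binomial 95% intervals, shaded bands span the 10th to 90th percentile of all genes measured in the class, and dotted lines mark 2-fold. In microglia Lpl (2.58), Spp1 (2.77) and Mmp12 (8.60) lie right of the band in ULI, and Apoe (-1.53) and Cst3 (-2.13) lie left of it.

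Lpl, Spp1 and Mmp12 were higher in ULI microglia than in both other libraries. Lpl, the lipoprotein lipase, was at 176 CPM (165 to 188) in control, against 1054 (1011 to 1098) for ULI and 93.3 (76.3 to 113) for ULC. Spp1, which encodes the secreted phosphoprotein osteopontin, was at 40.2 CPM (35.0 to 45.9), 275 (253 to 297) and 7.998 (3.66 to 15.2). Mmp12, the macrophage elastase, gave 156 UMIs in ULI, or 71.3 CPM (60.5 to 83.4), and 1 UMI in each of the other libraries. For Lpl and Spp1 no intervals of the 3 libraries overlapped, with ULI highest and ULC lowest. The log2 ratio of ULI to control was 2.58 (2.47 to 2.69) for Lpl, 2.77 for Spp1 and 8.60 (6.10 to 13.91) for Mmp12, the last against 1 UMI in control. All 3 stayed past 2-fold in each of 14 alternative settings run for these ratios. For Mmp12, however, the setting less the median over the other classes took nothing off, since no other class was measured. The lowest values were 1.13 for Lpl and 2.23 for Spp1, both less the median over the other classes. For Mmp12 the lowest was 5.34, without the 3 cells of most UMIs. The difference in Lpl was not particular to microglia. It was at least 2-fold higher in ULI than in control in 6 of the 7 classes measured and lower in 1. Several of the 6 rest on little. In choroid plexus epithelium Lpl gave 32 UMIs in ULI and 0 in control, so that ratio is only a bound. In the oligodendrocyte lineage the ratio went from 2.29 to 0.41 with doublets left out. The limits in perivascular macrophages and astrocytes are given below. In endothelial cells Lpl was at 65.7, 219 and 161 CPM in control, ULI and ULC.

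The UMIs of these 3 genes were held by few cells. In ULI, 165 of 908 microglia had a UMI of Lpl, 48 one of Spp1 and 20 one of Mmp12. The 3 cells of most UMIs held 13.2% of all Lpl UMIs, 38.3% of Spp1 and 68.6% of Mmp12 (107 of 156). The same cells carried several of the genes: of the 20 cells with Mmp12, 19 had Lpl and 16 had Spp1, and of the 48 with Spp1, 38 had Lpl. Among the ULI microglia without an Mmp12 UMI, 16.4% had Lpl and 3.604% had Spp1. The cells with Mmp12 were also deeper, with a median of 5505.5 UMIs against 2226 in those without, and the part of depth in the joint detection was not tested. In control, 229 of 1725 microglia had Lpl and 48 had Spp1, and 17 cells had both. After thinning to 500 UMIs per cell, Lpl was found in 11.6% of ULI, 4.83% of control and 2.42% of ULC microglia, and in 0.112% of ULI, 0 of 1401 control and 0 of 876 ULC mature oligodendrocytes. Spp1 was then found in 3.11% of ULI, 0.698% of control and 0.44% of ULC microglia and in 0 of 896 ULI mature oligodendrocytes, which allows a share of up to 0.335%. Before thinning, Lpl was found in 18.2%, 13.3% and 7.88% and Spp1 in 5.29%, 2.78% and 1.24% of these microglia.

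**Figure D3:**
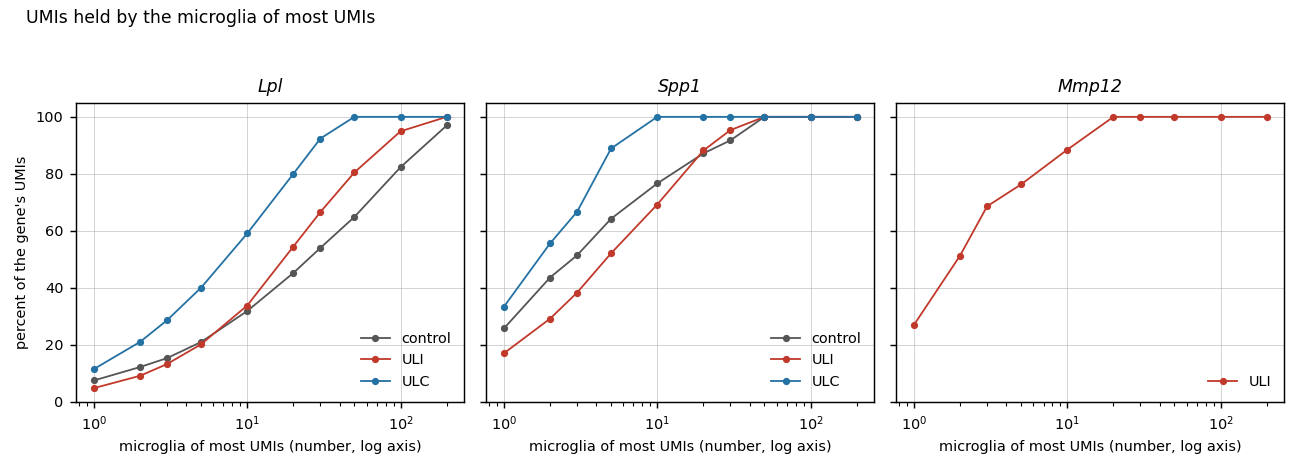
Percent of a gene's UMIs in the microglia of a library that is held by its cells of most UMIs (number of cells, log axis); lines are libraries, and Mmp12 is drawn for ULI only, since control and ULC had 1 UMI each. The 3 cells of most UMIs in ULI hold 13.2% of Lpl, 38.3% of Spp1 and 68.6% of Mmp12.

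Microglia fell into 4 clusters, which the libraries filled unequally. Cluster 7, led by the homeostatic receptors P2ry12 and Cx3cr1, took in 74.1% of control microglia, 29.8% of those of ULI and 4.98% of those of ULC. Cluster 8, led by Lpl itself and by the chemokine and cytokine genes Cxcl10, Tnf and Ccl4, held 19.3%, 61.0% and 4.77%. Cluster 16, led by C1qa and Tmem119, held 84.6% of ULC microglia against 1.97% and 0.661% of control and ULI, so the ULC values are in effect those of a cluster drawn mostly from 1 library. Cluster 15 held shallow cells, with a median of 732 UMIs, and 4.58%, 8.48% and 5.60% of the microglia.

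Lpl went into the clustering and leads cluster 8, so cells with much Lpl were placed there and not in cluster 7, and its levels in both clusters describe the clustering. Within cluster 8, Lpl was at 528 CPM in control and 1450 in ULI, a log2 ratio of 1.46 (1.33 to 1.58), and Spp1 at 131 and 383 CPM, a ratio of 1.54 (1.30 to 1.79). Of the 20 ULI microglia with Mmp12, 19 were in this cluster. Within cluster 7, Lpl was at 56.3 CPM in control and 42.4 in ULI, with overlapping intervals, and Spp1 gave 39 UMIs in control and 0 in ULI, which allows up to 5.53 CPM. Apoe was lower in ULI in both, at 116 against 317 CPM in cluster 7 and 197 against 1012 CPM in cluster 8. Axl was at 21.9 and 24.0 CPM in control and ULI cells of cluster 7, but at 110 and 31.98 CPM in cluster 8. Trem2 had a log2 ratio of -0.28 (-0.44 to -0.12) in cluster 7 and -1.10 (-1.24 to -0.96) in cluster 8, while Mertk had 0.30 and 0.27. Cst3 was lower in ULI by a like step in both, at -1.88 and -2.15.

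**Figure D4:**
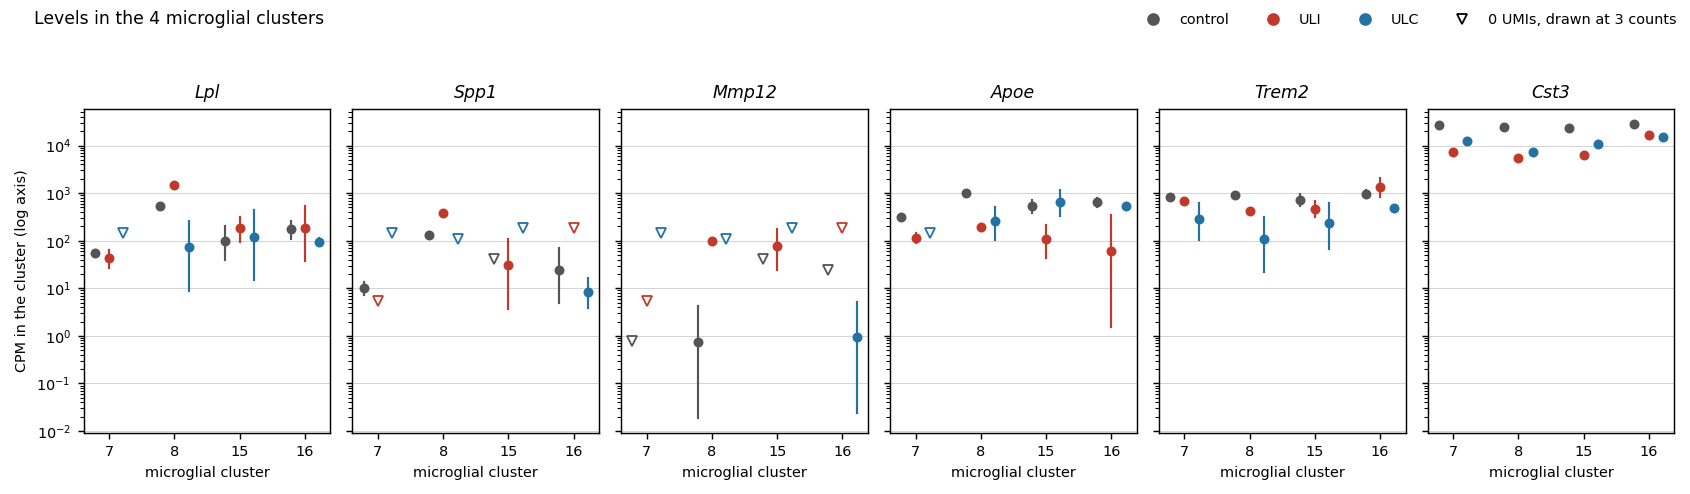
Level in CPM (log axis) of 6 of the genes in the 4 microglial clusters by library; bars are exact Poisson 95% intervals and open triangles mark 0 UMIs, drawn at the level of 3 counts. In cluster 8 Lpl is at 528 CPM in control and 1450 in ULI, while in cluster 7 it is at 56.3 and 42.4.

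In perivascular macrophages Spp1 had 48.6 CPM (35.7 to 64.7) in control, 87.6 (66.4 to 114) for ULI and 151 (116 to 194) for ULC, an order other than in microglia. The ratio of ULC to control was 1.64 (1.07 to 2.21), but 64.5% of the ULC UMIs came from 3 cells, and without the 3 cells of most UMIs no gene of the 10 stayed past 2-fold in that comparison. Lpl gave 13, 30 and 0 UMIs in perivascular macrophages, of which 29 of the 30 in ULI came from 3 cells. In control, 3 cells held 8 of the 13 UMIs. Without the 3 cells of most UMIs in each library, the ratio of ULI to control turned from 1.78 to -1.75. The latter rests on under 20 UMIs in both libraries together. In astrocytes Lpl gave 9, 16 and 0 UMIs, and Spp1 and Mmp12 at most 1 in any library. In the oligodendrocyte lineage Lpl gave 23, 65 and 6 UMIs, and 28 of the 65 in ULI came from 3 cells. Among the other classes, Spp1 was highest in leptomeningeal fibroblasts, at 1375 to 1656 CPM, where Lpl was at 252 to 528 CPM. In the Rgs5 cluster, Spp1 gave 0, 162 and 11 UMIs, with ULI at 174 CPM. The exact interval of the log2 ratio of ULI to control there has a lower limit of 4.35. Of the 413 ULI cells of this cluster, 22 had a Spp1 UMI.

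A gene counts as measured with 20 or more UMIs in both libraries together. By this rule all 10 genes were measured in microglia for ULI and control. Lpl, Spp1 and Mmp12 were at least 2-fold higher in ULI, as were 7.08% of all genes measured, and Mfge8, Apoe and Cst3 at least 2-fold lower (13.8%). In perivascular macrophages 8 were measured, with Lpl higher (7.59%) and Tyrobp, Apoe and Cst3 lower (13.5%). In astrocytes 7 were measured, with Lpl higher (7.04%) and Mfge8, Apoe and Cst3 lower (11.2%). The ratio of Lpl there was 1.16 (-0.11 to 2.52), an interval that includes equality. In the oligodendrocyte lineage 8 were measured, with Mertk, Axl and Lpl higher (24.3%) and Mfge8 and Cst3 lower (10.7%). For ULC and control, microglia had Mfge8 higher (13.4%) and Spp1 lower (10.1%) among 9 genes measured. Perivascular macrophages had Spp1 higher (11.2%) and none lower (13.8%) among 7, and astrocytes none higher (9.43%) and Apoe and Cst3 lower (16.5%) among 5. The lineage had Mertk, Axl and Mfge8 higher (30.8%) and Trem2 lower (7.95%) among 8. The genes were chosen by values of the same libraries, so nothing is read from these counts. The median log2 ratio over all genes measured in the lineage was itself 0.36 in ULI and 0.50 in ULC, while it stayed between -0.17 and 0.01 in the other 3 classes.

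Over all genes, the ratios went along with the GC content of the transcripts. For ULI to control in microglia, the median log2 ratio of all genes measured in 5 equal bins of GC content was 0.18 in the lowest bin and then 0.12, 0.01, -0.22 and -0.56 in the highest. For ULC to control it ran the other way, at -0.12, -0.10, -0.04, 0.08 and 0.43. Of the 10 genes, Mmp12 (40.1% GC), Spp1 (43.3%) and Lpl (43.5%) lie in the lowest bin for ULI to control, and Cst3 (57.2%), Trem2 (57.5%), Mfge8 (57.6%) and Apoe (59.5%) in the highest. Mertk (48.1%), Axl (54.2%) and Tyrobp (54.8%) lie between. In the highest bin the 10th percentile of all genes was -1.78. Cst3 at -2.13 lies outside the middle of that bin, and Apoe at -1.53 and Trem2 at -0.78 inside it. Mfge8 at -2.73 lies outside by its value, but its interval of -5.84 to -0.77, on 2 and 33 UMIs, reaches inside. In the lowest bin the 90th percentile was 0.85, below Lpl, Spp1 and Mmp12. The part of GC content in the ratios was not tested beyond this.

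**Figure D5:**
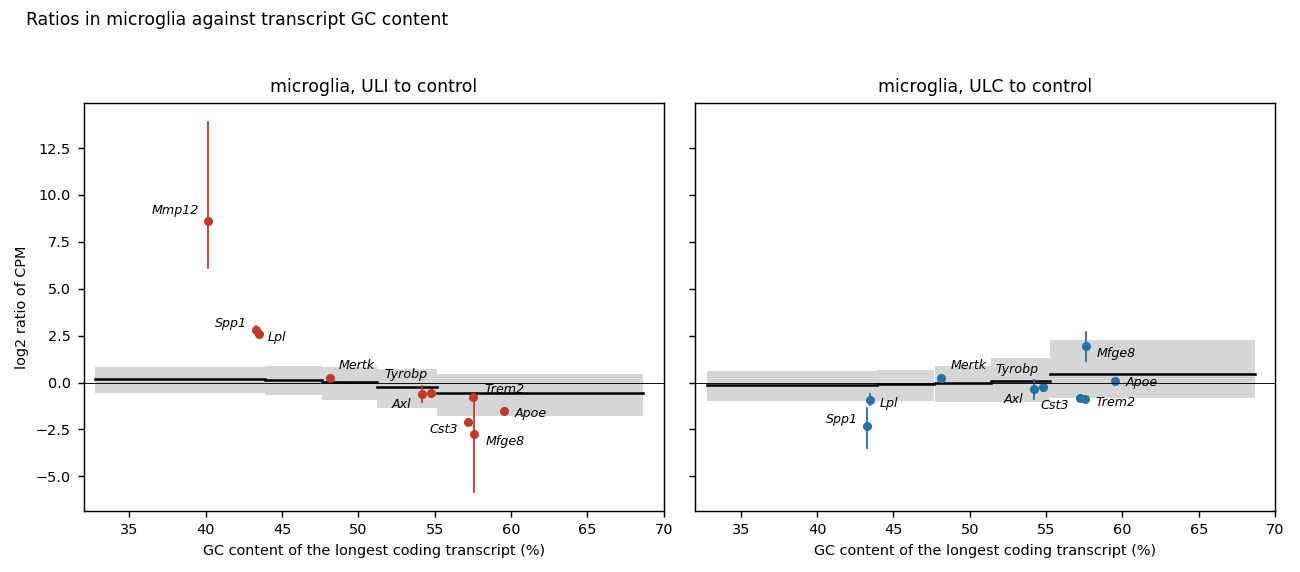
Log2 ratio in microglia against the GC content (%) of the longest coding transcript, for ULI (left) and ULC (right) to control; black lines are the medians of all genes in each of 5 bins of GC content, grey bands span their 10th to 90th percentile, and dots with 95% intervals are those of the 10 genes measured with 20 or more UMIs. In ULI the medians go from 0.18 to -0.56, and Lpl, Spp1 and Mmp12 lie above the band of the lowest bin.

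Other genes of these pathways were taken from 8 lists that hold none of the 10 genes. Of all genes measured in microglia, 7.08% were at least 2-fold higher and 13.8% lower in ULI, and 13.4% higher and 10.1% lower in ULC, with a median log2 ratio of -0.03 and 0.01. Among engulfment receptors, bridges and adaptors, 3 of 18 measured in ULI microglia were at least 2-fold higher and 1 lower, with a median log2 ratio of -0.32. The scavenger receptor gene Msr1 had 3.87 CPM in control, 230 for ULI and 77.3 for ULC, a log2 ratio of 5.89 (5.26 to 6.60) in ULI and 4.32 (3.62 to 5.08) in ULC. The phospholipid receptor gene Cd300lf was higher on both sides too, with ratios of 3.27 and 3.16, and Itgb5, a chain of an integrin that binds MFGE8, was lower in ULI, at 111 against 258 CPM. In ULC, 2 of 17 were higher and 0 lower. Among genes of TREM2-TYROBP signalling, 0 of 16 were higher and 2 lower in ULI (median -0.43), namely the adaptor Hcst and Spi1, which encodes PU.1, at 32.4 against 79.98 CPM. In ULC 2 of 16 were higher, Card9 and the exchange factor Vav1, and 1 was lower, the growth factor receptor Csf1r, at 2774 against 6197 CPM.

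Among genes of lipid transport, storage and lipases, 2 of 22 were higher and 4 lower in ULI microglia (median -0.39). Ch25h, which makes 25-hydroxycholesterol, was at 6.08 CPM in control and 56.7 in ULI, and the lipocalin Apod at 102 and 23.8, with 16.9 in ULC. In ULC 3 of 21 were higher, the lipase factor Lmf1, the lipase Pnpla2 and the lipid droplet coat gene Plin2, and 3 lower. Of the genes that mark microglia in disease models, 7 of 19 were higher and 3 lower in ULI (median 0.46), with ratios of 2.97 for the galectin gene Lgals3, 2.57 for the growth factor Igf1, 1.75 for Csf1 and -2.58 (-3.16 to -2.06) for the surface glycoprotein gene Cd52. In ULC 4 of 19 were higher and 3 lower (median -0.13), with Csf1 at 1.57, Cd52 at 1.35 and the integrin Itgax at -1.46. Cathepsins and cystatins had 2 of 13 higher and 2 lower in ULI. The cathepsin gene Ctsc was at 530 CPM in control and 1103 in ULI, and Ctsd at 749, 360 and, in ULC, 1662. In ULC 3 of 13 were higher and 1 lower, and Ctsa and Ctsz had log2 ratios of 3.81 and 2.49.

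Osteopontin receptors and matrix proteases had 1 of 9 higher and 1 lower in ULI. Cd44, a receptor of osteopontin, had 2.58 CPM in control, 51.6 for ULI and 24.0 for ULC. In ULC 2 of 8 were higher and 0 lower. Immediate early and heat shock genes, which respond to dissociation, had 0 of 16 higher and 4 lower in ULI microglia, and 2 of 16 higher and 1 lower in ULC, with Fosb at 265, 92.8 and 1017 CPM in the 3 libraries. Mitochondrially encoded genes had 0 of 9 higher and 1 lower in ULI and 0 of 8 higher and 1 lower in ULC. The summed level of the 10 microglial markers was 24766, 15575 and 14723 CPM in control, ULI and ULC microglia. In perivascular macrophages the same markers summed to 8620, 4470 and 5271 CPM, beside lower Trem2 and Tyrobp, and the part of these markers in the differences was not tested.

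In perivascular macrophages, 1 of 18 engulfment genes was higher and 6 were lower in ULI (median -0.67), against 7.59% and 13.5% of all genes measured (median -0.01), among them Gas6, the ligand of MERTK and AXL, at 98.4 against 301 CPM. Of 16 immediate early and heat shock genes there, 6 were higher in ULC and 0 lower, against 11.2% and 13.8% of all genes. In astrocytes, 0 of 12 engulfment genes were higher and 4 lower in ULI, against 7.04% and 11.2% of all genes. Among those lower, the calreticulin gene Calr was at 614 CPM in control and 165 in ULI, and the APOE receptor gene Lrp1 at 207 and 93.4. The carrier Clu, like Apoe an apolipoprotein gene, was at 1289 CPM in control and 442 in ULI astrocytes. Cd44 was at 8.69 and 74.7 CPM in control and ULI astrocytes. In the oligodendrocyte lineage, 0 of 17 engulfment genes were higher and 5 lower in ULI, against 24.3% and 10.7% of all genes. In ULC 4 of 15 were higher and 3 lower, against 30.8% and 7.95% of all genes.

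The genes most like each of the 10 were found by Pearson's r of log2(CPM + 10) over 32 sums of a class in a library, among 12239 genes. The sums share libraries and depth, so r is given as a description. Trem2 was closest to C1qb (0.97), Cx3cr1 and Mpeg1, and Tyrobp to Abcc3 (0.99), Cd300c2 and Pik3cg. Apoe was closest to Sdc4 (0.91), Notch2 and its lipid loader Abca1 (0.81), and Spp1 to Nupr1 (0.93), Tgfbi and Enpp1. Mertk was closest to Crlf3 (0.90), Creg1 and Ier5, Axl to Cd302 (0.84), Egfr and Bcl6, and Lpl to Tfpi (0.82), with Cd34 also among its closest genes. Cst3 was closest to Prkcd (0.83), Irak2 and Itgb5, and Mfge8 to Yipf3 (0.82), Ccs and Nat6. Mmp12 had under 200 UMIs and was not compared. None of the 10 was among the 3 genes closest to another.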

How the data were processed

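The authors deposited 1 table of UMI counts per gene and barcode, whole numbers with no scaling, for 3 libraries. The submitters' processing notes name CASAVA 1.8, UMI-tools, Seurat and mm10. The aligner, the annotation and the calling of cells were not given in the sources used here, and the sources name the platform differently (10X, Drop-seq, BD Rhapsody). Barcodes with at least 200 genes were kept. Counts were scaled to 10000 per cell and log-transformed, and 2000 variable genes, 30 components and 20 neighbours went into Leiden clustering (resolution 1.0, seed 1) with scanpy 1.11.5 in Python 3.11.15. Clusters were named by markers of 19 classes, and 3 of 26 clusters, with 1195 cells, stayed unnamed. UMIs were summed per class and library. Where a library had 0 UMIs, 3 counts took its place and only a bound on the ratio is given. TMM (edgeR 4.0.16) and median-of-ratios factors (DESeq2 1.42.0, R 4.3.3) served as alternative scalings only. Doublets were kept in the values reported. As an alternative, Scrublet scores (scikit-image 0.26.0) left out 67, 259 and 238 cells, automatic at 1.45% of control cells and by the top 5% of scores where the automatic call marked under 0.5%. Named genes are the 10 members, up to 4 genes per list and class with the largest ratio past 2-fold whose interval leaves out 1, and the 3 genes most like each member, of which 1 is not reported here. Transcript GC was taken from the longest coding transcript in GENCODE M21. There, 17114 genes of the table had a protein-coding transcript. The ratio step was tested on simulated counts. The members, markers and lists were chosen with earlier results of these data known.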

Additional observations from a re-analysis of the deposited data

Results flagged for a closer look

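Spp1 stood out because its ratio of ULC to control went opposite ways in both macrophage-like classes. It was -2.33 (-3.48 to -1.38) in microglia, on 9 UMIs in ULC and 218 in control, and 1.64 (1.07 to 2.21) in perivascular macrophages, on 62 and 47 UMIs. The difference between the classes was not tested, since each group is 1 library. Both values rest on few cells: 6 ULC microglia and 13 ULC perivascular macrophages had a Spp1 UMI. With cells chosen by markers both ratios changed sign, to 0.028 and -0.14. Without the 3 cells of most UMIs, the ratio in perivascular macrophages was under 2-fold.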

How the results depend on the processing

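No paired analysis was possible because each group is 1 pooled library, and for the same reason no replicate could be left out. Of 1625 ratios under other settings, 1380 stayed within their 95% interval, 232 left it and 13 changed sign, 1 of these only as a bound. The settings less the median of the GC bin and without the 3 cells of most UMIs were chosen after seeing the data. The number of the 10 genes past 2-fold changed by over 1.5 times as follows, and the cause was not tested. Less the median over the other classes, it was 3 in place of 6 in microglia, 0 in place of 4 in perivascular macrophages, 1 in place of 4 in astrocytes and 3 in place of 5 in the oligodendrocyte lineage for ULI to control, and for ULC to control 1 in place of 2 in astrocytes and 2 in place of 4 in the lineage. Mmp12 in microglia was left out of the count less the median over the other classes, since no other class was measured. Less the median of the GC bin, the number was 2 in perivascular macrophages for ULI and 4 in place of 2 in microglia for ULC. At 1.5-fold, it was 7 in perivascular macrophages for ULI, and 5 in microglia and 4 in place of 1 in perivascular macrophages for ULC. In ULC microglia it was 5 under TMM scaling and 1 with the members left out of clustering, doublets left out or cells chosen by markers. In ULC perivascular macrophages it was 0 with doublets left out, by the mean over cells or without the 3 cells. In ULC astrocytes it was 1 at 500 genes per cell, with doublets left out, with cells chosen by markers or by the mean over cells, and 0 with totals without mitochondrial, ribosomal, blood and plexus genes, under TMM or under median-of-ratios scaling. Less the median over the other classes, the ratio of ULI to control turned to 0.18 for Apoe in perivascular macrophages, -0.60 for Lpl in astrocytes, and 0.20 for Mfge8 and 0.55 for Cst3 in the lineage, and that of ULC to control to -0.31 for Mfge8 in the lineage. The ratio of ULI to ULC turned to 0.13 and 0.28 for Cst3 in microglia and astrocytes and 0.60 for Mfge8 in the lineage. Without the 3 cells of each library, Lpl in perivascular macrophages turned to -1.75 for ULI to control. For ULI to ULC it went to -2.25, which is only a lower bound, since ULC held 0 UMIs. With cells chosen by markers, Spp1 for ULC to control turned to 0.028 in microglia and -0.14 in perivascular macrophages. With doublets left out, Trem2 in the lineage for ULI to ULC turned to -0.17. Ratios on few UMIs, such as those of Axl, Mfge8 and Mmp12 in microglia, have wide intervals.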
